A study of Mus musculus with 11 samples.

Results

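Transforming growth factor beta (TGF-beta) genes and the genes that mark contractile, matrix-making cells were measured in the livers of mice that lack Nemo in hepatocytes. The 10 genes were the ligands Tgfb1, Tgfb2 and Tgfb3, the receptors Tgfbr1 and Tgfbr2, the inhibitor Smad7, the actin and actin-binding genes Acta2 and Tagln, the matrix proteoglycan gene Lum, and Thbs1, whose product thrombospondin 1 activates latent TGF-beta. They are 10 of the 19938 genes that had a probe set naming exactly 1 gene symbol in the array annotation. Each of the 10 had exactly 1 such probe set, so no choice between probe sets was needed. The probe sets were 10551185 for Tgfb1, 10360920 for Tgfb2, 10401673 for Tgfb3, 10504817 for Tgfbr1 and 10597518 for Tgfbr2. Those of the remaining genes were 10456745 for Smad7, 10467124 for Acta2, 10593123 for Tagln, 10365983 for Lum and 10474700 for Thbs1.

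TGF-beta is secreted in a latent form bound to the matrix and is released by integrins, proteases and thrombospondin 1. The active dimer brings the type II receptor Tgfbr2 together with the type I receptor Tgfbr1, which phosphorylates Smad2 and Smad3; Smad7 is induced by the same signal and blocks it. In the injured liver the pathway is best known for turning hepatic stellate cells and portal fibroblasts into myofibroblasts, which make smooth muscle actin (the product of Acta2) and fibrillar collagen.

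Whole-liver RNA of male C57/BL6 mice aged 8 to 9 weeks and fed chow was run on 11 Affymetrix mouse whole-transcript arrays, with 1 array per RNA sample. The groups were 3 wild-type samples (WT), 3 samples with Nemo deleted in hepatocytes (NemoΔhepa, called Nemo KO here), 2 samples from NemoΔhepa mice crossed with TRAIL-/- mice (Nemo/TRAIL dKO) and 3 from NemoΔhepa mice crossed with TNFR1-/- mice (Nemo/TNFR1 dKO). Ikbkg encodes Nemo, the part of the IκB kinase that NF-κB activation depends on. Tnfsf10 encodes the death ligand TRAIL, and Tnfrsf1a encodes TNFR1, through which tumour necrosis factor signals. All 3 Nemo-deficient genotypes share the hepatocyte deletion, made from a loxP-flanked Nemo gene, and TRAIL or TNFR1 is missing in every cell of a double knockout. The labels do not name the driver of the hepatocyte deletion. They do not say whether each sample is a separate mouse, so that the p-values reflect only how much these samples spread, which may be technical. Values are log2 expression, so that a difference of 1 is a doubling, and the number of arrays limits their precision. In whole liver, fewer cells of a type and less RNA per cell cannot be told apart.

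The arrays read as liver: the mean of 10 hepatocyte markers lay between 12.93 and 13.06 on every array. WT replicate 3 stood apart, since its mean over 11 pancreatic acinar markers was 11.03, against 5.37 to 5.77 on the other 10 arrays. Results against WT are therefore also given without this array. A code in the array names is shared by WT and Nemo KO and differs in each double knockout. The labels do not say what it marks, and for both double knockouts it cannot be told apart from genotype. Against WT, Ikbkg fell by 0.41 in Nemo/TRAIL dKO and by 0.45 in Nemo/TNFR1 dKO (adjusted p = 0.0239 and 0.00818), and its difference of -0.24 in Nemo KO did not pass (adjusted p = 0.106). Tnfsf10 in Nemo/TRAIL dKO (-0.65 against WT, adjusted p = 0.0749) and Tnfrsf1a in Nemo/TNFR1 dKO (0.07 against WT, adjusted p = 0.670, and -0.27 against Nemo KO, adjusted p = 0.586) did not pass. The mean of Tnfrsf1a was thus no lower in the arrays labelled Nemo/TNFR1 dKO (10.06) than in WT (9.99), while it rose against WT in Nemo KO (0.35, adjusted p = 0.0401) and Nemo/TRAIL dKO (0.43, adjusted p = 0.0314). The labels do not say which part of each gene was deleted, so these levels do not check the TRAIL and TNFR1 labels.

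Tgfb1, both receptors, Smad7, Lum and Thbs1 rose in all 3 Nemo-deficient genotypes. Lum and Thbs1 had the largest differences, between 1.90 and 2.40 log2 units, and the receptors, Smad7 and Tgfb1 differed by 0.55 to 1.08. Tgfb3 passed the test in Nemo KO and Tagln in both double knockouts, while Tgfb2 and Acta2 passed in none. No member was called lower against WT, and no member was called different between any pair of Nemo-deficient genotypes. The question of the design is what the hepatocyte loss of Nemo changes and whether loss of TRAIL or TNFR1 alters it.

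Of the 10 genes, 7 were called higher in Nemo KO against WT (limma, adjusted p below 0.05), beside 8.51% of all genes, and 0 were called lower, beside 4.08%. For Nemo/TRAIL dKO 7 were higher, beside 6.88%, and 0 lower, beside 3.34%. For Nemo/TNFR1 dKO 7 were higher, beside 8.18%, and 0 lower, beside 3.89%. The 3 comparisons share the WT arrays, so their calls are not independent of one another. In each of them 9 of the 10 genes, all but Acta2, had every Nemo-deficient value above every WT value, which held for 16.6%, 17.9% and 15.2% of all genes in the same comparisons. The median difference of the 10 genes was 0.83, 0.91 and 1.05 in the 3 comparisons, against -0.05, -0.04 and -0.02 over all genes. Without WT replicate 3, 6, 5 and 8 of the genes were called. With only the 2 genotypes compared in the fit 6, 5 and 5 were called, since Smad7 in Nemo KO (adjusted p = 0.0637), Tgfb1 (0.0667) and Tagln (0.128) in Nemo/TRAIL dKO, and Tgfbr1 (0.0775) and Tagln (0.0624) in Nemo/TNFR1 dKO no longer passed.

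**Figure D1:**
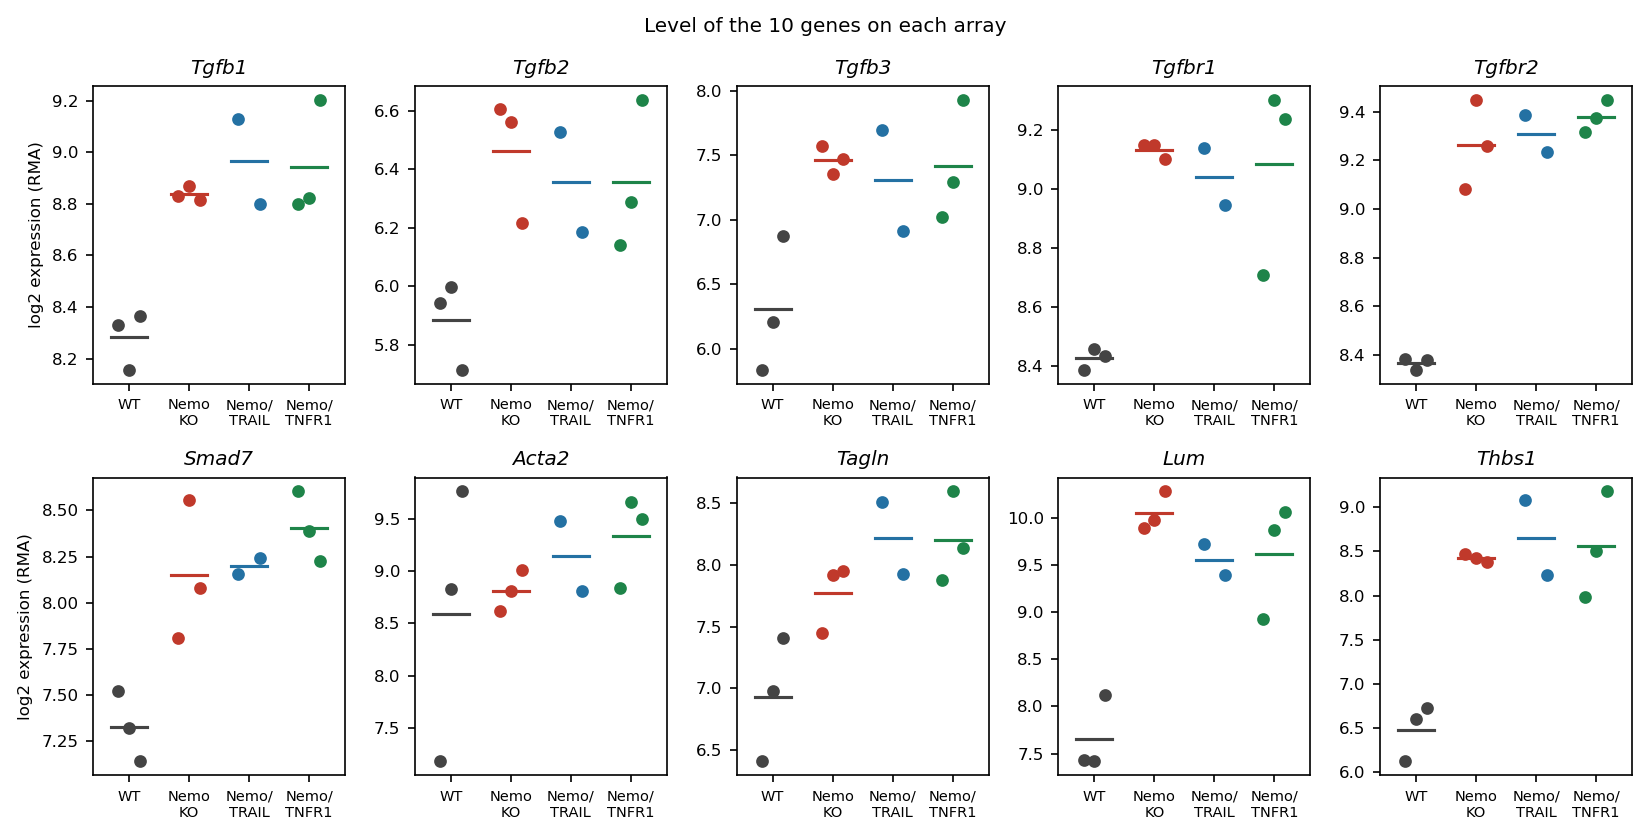
The log2 expression (RMA) of each of the 10 genes on each of the 11 arrays, by genotype; a point is 1 array, a bar is the group mean, and each panel has its own vertical scale, which does not start at 0. In 9 panels all 8 Nemo-deficient points lie above the WT points, while for Acta2 they lie between 8.62 and 9.66, inside the WT range of 7.18 to 9.76.

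Tgfb1 encodes the TGF-beta isoform made by most immune and mesenchymal cells. It read 8.33, 8.16 and 8.37 on the WT arrays, 8.83, 8.87 and 8.82 in Nemo KO, 9.13 and 8.80 on the Nemo/TRAIL dKO arrays, and 8.80, 8.82 and 9.20 in Nemo/TNFR1 dKO. The WT values were the 3 lowest of the 11, and the lowest Nemo-deficient value lay 0.43 above the highest WT value. The 3 Nemo KO arrays lay within 0.05 of each other, while 1 array of each double knockout stood above them. The difference from WT was 0.55 ± 0.12 in Nemo KO (SE, adjusted p = 0.0218), a fold of 1.47, with 0.68 ± 0.14 in Nemo/TRAIL dKO (adjusted p = 0.0166) and 0.66 ± 0.12 in Nemo/TNFR1 dKO (adjusted p = 0.00997). In Nemo KO the call was lost in 5 of the 11 fits that each left out 1 array, namely any of the 3 Nemo KO arrays, WT replicate 1 or WT replicate 2 (adjusted p up to 0.0751). The Nemo/TRAIL dKO call was lost without its replicate 1 and without WT replicate 2 (adjusted p up to 0.152), and the Nemo/TNFR1 dKO call was kept in all 11.

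Tgfb2, an isoform linked to epithelia and bile ducts, read 5.94, 5.999 and 5.71 in WT, 6.61, 6.56 and 6.22 in Nemo KO, 6.53 and 6.18 on the Nemo/TRAIL dKO arrays, and 6.14, 6.29 and 6.64 in Nemo/TNFR1 dKO. The groups did not overlap, but the lowest Nemo-deficient array was only 0.14 above the highest WT array, and each Nemo-deficient genotype had an array in this lower range. The difference in Nemo KO was 0.58 ± 0.16 and missed the threshold (adjusted p = 0.0520), as did 0.47 ± 0.18 in Nemo/TRAIL dKO (adjusted p = 0.159) and 0.47 ± 0.16 in Nemo/TNFR1 dKO (adjusted p = 0.105). It passed in Nemo KO when only single-symbol probe sets were tested, after quantile normalization or with probe sets below the 25th percentile of mean signal removed, and also without Nemo KO replicate 3, Nemo/TNFR1 dKO replicate 1 or Nemo/TNFR1 dKO replicate 3.

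Tgfb3, the isoform linked to mesenchymal cells, varied more among WT arrays than the other ligands: 5.84, 6.21 and 6.88. It read 7.58, 7.36 and 7.47 in Nemo KO, 7.70 and 6.91 on the Nemo/TRAIL dKO arrays, and 7.02, 7.29 and 7.93 in Nemo/TNFR1 dKO. WT replicate 3 nearly reached the lowest Nemo-deficient array, with a gap of 0.04. The difference was 1.16 ± 0.31 in Nemo KO (adjusted p = 0.0464, a fold of 2.23), 0.998 ± 0.35 in Nemo/TRAIL dKO (adjusted p = 0.126) and 1.11 ± 0.31 in Nemo/TNFR1 dKO (adjusted p = 0.0549). The call in Nemo KO alone is no difference between genotypes, since Tgfb3 differed by -0.16 ± 0.35 and -0.05 ± 0.31 between the double knockouts and Nemo KO (adjusted p = 1 and 0.985). The Nemo KO call held in 5 of 11 fits that left out 1 array, with adjusted p of 0.0216 without WT replicate 3 and 0.130 without WT replicate 1. It was also lost without WT replicate 2, any Nemo KO array or Nemo/TNFR1 dKO replicate 2, after quantile normalization and with robust moderation of the variances. The Nemo/TNFR1 dKO difference passed without WT replicate 3 (1.39, adjusted p = 0.0250) and without its own replicate 1. It also passed in 6 of 12 other settings. These were the 25th percentile and median signal filters, single-symbol probe sets, the mean of a gene's probe sets, array weights and a replicate block.

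The sequence before the start site is shown for a ligand that passed in all 3 genotypes and for one that passed in none. Start-site windows of RefSeq (GRCm38.p6) were used for 5 of the 10 genes. The 250 bases upstream of Tgfb1 (chr7:25686752-25687001, plus strand) and of Tgfb2 (chr1:186705990-186706239, minus strand) are printed 5′ to 3′, with capitals marking motif matches on either strand.
Tgfb1: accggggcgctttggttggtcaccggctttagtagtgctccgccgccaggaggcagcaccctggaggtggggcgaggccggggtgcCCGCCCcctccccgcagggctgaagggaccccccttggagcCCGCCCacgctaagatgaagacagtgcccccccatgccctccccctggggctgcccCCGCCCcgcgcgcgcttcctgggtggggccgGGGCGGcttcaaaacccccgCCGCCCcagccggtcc
Tgfb2: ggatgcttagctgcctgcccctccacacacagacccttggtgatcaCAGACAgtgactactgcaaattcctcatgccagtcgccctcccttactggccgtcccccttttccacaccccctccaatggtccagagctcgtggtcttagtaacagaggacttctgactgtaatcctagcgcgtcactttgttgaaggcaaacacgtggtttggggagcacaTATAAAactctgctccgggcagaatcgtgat
The motifs searched were TATAAA, the TATA box; GGGCGG, the core of the GC box; CAGACA, which holds the core of the Smad binding element; and the CArG box, the site of serum response factor, allowing 1 G or C among its middle 6 bases. Tgfb1 had 75.2% G and C, 5 GGGCGG matches starting at -164, -123, -67, -36 and -16, and no other match. Tgfb2 had 53.6% G and C, TATAAA at -31 and CAGACA at -204. No match overlapped another. Of 32851 windows of the same length 12.4% held TATAAA, 32.7% GGGCGG, 17.1% CAGACA and 8.59% a CArG box. A match is a description of the letters and not a site in use.

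The receptors rose in all 3 genotypes, and Tgfbr2 had the smallest error of the 10 genes. Tgfbr2, the type II receptor that binds the ligand first, read 8.38, 8.34 and 8.38 in WT, 9.08, 9.45 and 9.26 in Nemo KO, 9.39 and 9.23 on the Nemo/TRAIL dKO arrays, and 9.32, 9.37 and 9.45 in Nemo/TNFR1 dKO. The WT arrays agreed within 0.05 (SD 0.03), and 94.6% of all genes had a larger WT spread. The lowest of the 8 Nemo-deficient arrays stood 0.70 above WT. The difference was 0.90 ± 0.09 in Nemo KO (adjusted p = 0.000757, a fold of 1.86), 0.94 ± 0.10 in Nemo/TRAIL dKO (adjusted p = 0.00130) and 1.01 ± 0.09 in Nemo/TNFR1 dKO (adjusted p = 0.000482). In each comparison all 11 fits with 1 array left out kept the call.

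Tgfbr1, the type I receptor kinase, read 8.39, 8.46 and 8.44 in WT and 9.15, 9.15 and 9.10 in Nemo KO, both tight groups. It read 9.14 and 8.94 in Nemo/TRAIL dKO and 8.71, 9.30 and 9.24 in Nemo/TNFR1 dKO, where replicate 1 was the lowest Nemo-deficient array and lay 0.25 above WT. The difference was 0.71 ± 0.14 in Nemo KO (adjusted p = 0.0118, a fold of 1.63), 0.62 ± 0.15 in Nemo/TRAIL dKO (adjusted p = 0.0404) and 0.66 ± 0.14 in Nemo/TNFR1 dKO (adjusted p = 0.0169). All 11 fits with 1 array left out kept the call in Nemo KO, 3 did so for Nemo/TRAIL dKO and 8 for Nemo/TNFR1 dKO. The Nemo/TRAIL dKO call was lost without any array of WT, Nemo KO or Nemo/TRAIL dKO (0.62 and adjusted p = 0.0795 without WT replicate 3, adjusted p up to 0.248). The Nemo/TNFR1 dKO call was lost without WT replicate 1 (adjusted p = 0.0515) and without Nemo/TNFR1 dKO replicate 2 or 3 (adjusted p up to 0.0678).

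Smad7, the inhibitory Smad that directs the receptor to degradation, read 7.52, 7.32 and 7.14 in WT, 7.81, 8.56 and 8.08 in Nemo KO, 8.16 and 8.24 on the Nemo/TRAIL dKO arrays, and 8.60, 8.39 and 8.23 in Nemo/TNFR1 dKO. All 8 Nemo-deficient arrays were above WT, the nearest by 0.29, and the Nemo KO arrays spread over 0.75. The difference was 0.82 ± 0.18 in Nemo KO (adjusted p = 0.0206, a fold of 1.77), 0.87 ± 0.20 in Nemo/TRAIL dKO (adjusted p = 0.0304) and 1.08 ± 0.18 in Nemo/TNFR1 dKO (adjusted p = 0.00574). Without WT replicate 3 the Nemo KO call (0.73, adjusted p = 0.0650) and the Nemo/TRAIL dKO call (0.78, adjusted p = 0.0773) were lost, and the call in Nemo/TNFR1 dKO was kept (0.99, adjusted p = 0.0226), as in all 11 fits. Without WT replicate 2 the first 2 calls were lost as well, as was the Nemo KO call without Nemo KO replicate 3 and the Nemo/TRAIL dKO call without either of its arrays (adjusted p up to 0.144).

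Acta2, the gene of smooth muscle alpha-actin and the usual marker of activated stellate cells, did not pass in any genotype. It read 7.18, 8.83 and 9.76 in WT, 8.62, 8.81 and 9.01 in Nemo KO, 9.48 and 8.81 on the Nemo/TRAIL dKO arrays, and 8.84, 9.66 and 9.50 in Nemo/TNFR1 dKO. All 8 Nemo-deficient arrays fell between the lowest and the highest WT array. The WT SD was 1.31, and only 0.181% of all genes had a larger one, while the 3 Nemo KO arrays had an SD of 0.20. The difference from WT was 0.22 ± 0.54 in Nemo KO (95% interval -0.99 to 1.43, adjusted p = 0.829), 0.55 ± 0.60 in Nemo/TRAIL dKO (-0.80 to 1.90, adjusted p = 0.660) and 0.74 ± 0.54 in Nemo/TNFR1 dKO (-0.47 to 1.95, adjusted p = 0.463). The interval for Nemo KO leaves room for a fold from 0.505 to 2.69. These values depended on single WT arrays. Without WT replicate 3 they were 0.81, 1.14 and 1.33 in the 3 comparisons (adjusted p = 0.324, 0.229 and 0.121), and without WT replicate 1 they were -0.48, -0.15 and 0.04 (adjusted p = 0.436, 0.878 and 0.967).

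Tagln, which encodes the actin-binding protein transgelin (SM22), lay between Acta2 and the matrix genes. It read 6.41, 6.98 and 7.41 in WT, 7.45, 7.92 and 7.95 in Nemo KO, 8.51 and 7.92 on the Nemo/TRAIL dKO arrays, and 7.88, 8.60 and 8.14 in Nemo/TNFR1 dKO. The WT values ran in the same order as those of Acta2, but the groups did not overlap, by 0.04. Tagln rose in Nemo/TRAIL dKO (1.29 ± 0.32, adjusted p = 0.0378) and in Nemo/TNFR1 dKO (1.27 ± 0.28, adjusted p = 0.0217). The Nemo KO difference of 0.84 ± 0.28 did not pass (adjusted p = 0.101). The difference between the double knockouts and Nemo KO was 0.45 ± 0.32 and 0.43 ± 0.28 (adjusted p = 1 and 0.796). Without WT replicate 1 no Tagln difference passed (adjusted p = 0.246, 0.0863 and 0.0587 in the 3 comparisons). With each array left out in turn, the Nemo/TRAIL dKO call held in 4 of 11 fits and the Nemo/TNFR1 dKO call in 7. Both were lost without WT replicate 2 too. The first was also lost without Nemo KO replicate 2 or 3, either Nemo/TRAIL dKO array or Nemo/TNFR1 dKO replicate 3, and the second without Nemo/TNFR1 dKO replicate 2 or 3 (adjusted p up to 0.259 and 0.0799).

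Some smooth muscle genes had the same order as Acta2 among the WT arrays. Cnn1 (calponin 1) read 5.51, 6.57 and 7.27 on them, Myh11 (smooth muscle myosin) 6.57, 7.13 and 7.74, Actg2 (enteric smooth muscle actin) 5.73, 6.24 and 7.03, and Myl9 (a myosin light chain) 6.98, 7.81 and 8.49. Of 26 genes listed for the contractile cytoskeleton or for vascular smooth muscle, 11 (42.3%) were lowest in WT replicate 1 and highest in WT replicate 3, as were 4 of the 10 genes described here (Acta2, Tagln, Tgfb3 and Thbs1) and 13.6% of all genes. Others of the 26 ran the opposite way in smaller steps: Mylk (myosin light chain kinase) read 9.80, 9.67 and 9.52, Cald1 (caldesmon) 10.499, 10.33 and 10.24, Vcl (vinculin) 9.07, 9.04 and 8.96, and Mrtfa (a coactivator of serum response factor) 7.46, 7.25 and 7.24. The mean of 10 vascular smooth muscle markers was 6.32, 6.55 and 6.86 on the WT arrays and 6.32 to 6.52 on the others. The acinar markers did not follow the same steps, with 5.77, 5.61 and 11.03. The part of these transcripts in the Acta2 and Tagln results was not tested. Myh11, Actg2, Myl9, Mylk, Cald1, Vcl and Mrtfa were named after their values were seen.

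Over all arrays, 0 of the 10 vascular smooth muscle markers were called in Nemo KO against WT (median -0.11), and the largest difference was that of Cnn1, -0.79 ± 0.34 (adjusted p = 0.183). Without WT replicate 1, the array with the lowest Acta2, 3 of the 10 fell in Nemo KO: Cnn1 (-1.26 ± 0.17, adjusted p = 0.00481), Myh11 (-1.06 ± 0.18, adjusted p = 0.0128) and Actg2 (-0.94 ± 0.19, adjusted p = 0.0227). In each double knockout 3 of the 10 fell as well without WT replicate 1, but not the same 3. Actg2 did not pass in Nemo/TRAIL dKO (-0.82 ± 0.21, adjusted p = 0.0560), and Myh11 did not pass in Nemo/TNFR1 dKO (-0.61 ± 0.18, adjusted p = 0.0895). Without WT replicate 3, 0 were called in Nemo KO. The contractile list shares Cnn1, Myh11, Actg2, Lmod1, Mylk and Myocd with the vascular smooth muscle list. In the contractile list 8 of 22 genes rose in Nemo KO and 0 fell over all arrays (median 0.15). They included Vim (vimentin, an intermediate filament of mesenchymal cells and leukocytes, 1.26 ± 0.22), Tpm4 (a tropomyosin of non-muscle cells, 1.04 ± 0.12) and Tpm1 (a tropomyosin, 1.03 ± 0.10). Of the same 22, 7 rose in Nemo/TRAIL dKO (median 0.00) and 8 with TNFR1 missing (median 0.15). These counts stand beside the 8.51%, 6.88% and 8.18% of all genes that rose in the 3 comparisons with WT. Without WT replicate 3, 7 rose in each of the 3 comparisons. Without WT replicate 1, 6 rose in each and 3, 2 and 2 fell. Without Nemo KO replicate 3 the Nemo KO count was 5, and the Nemo/TRAIL dKO count was 3 without its replicate 1.

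**Figure D2:**
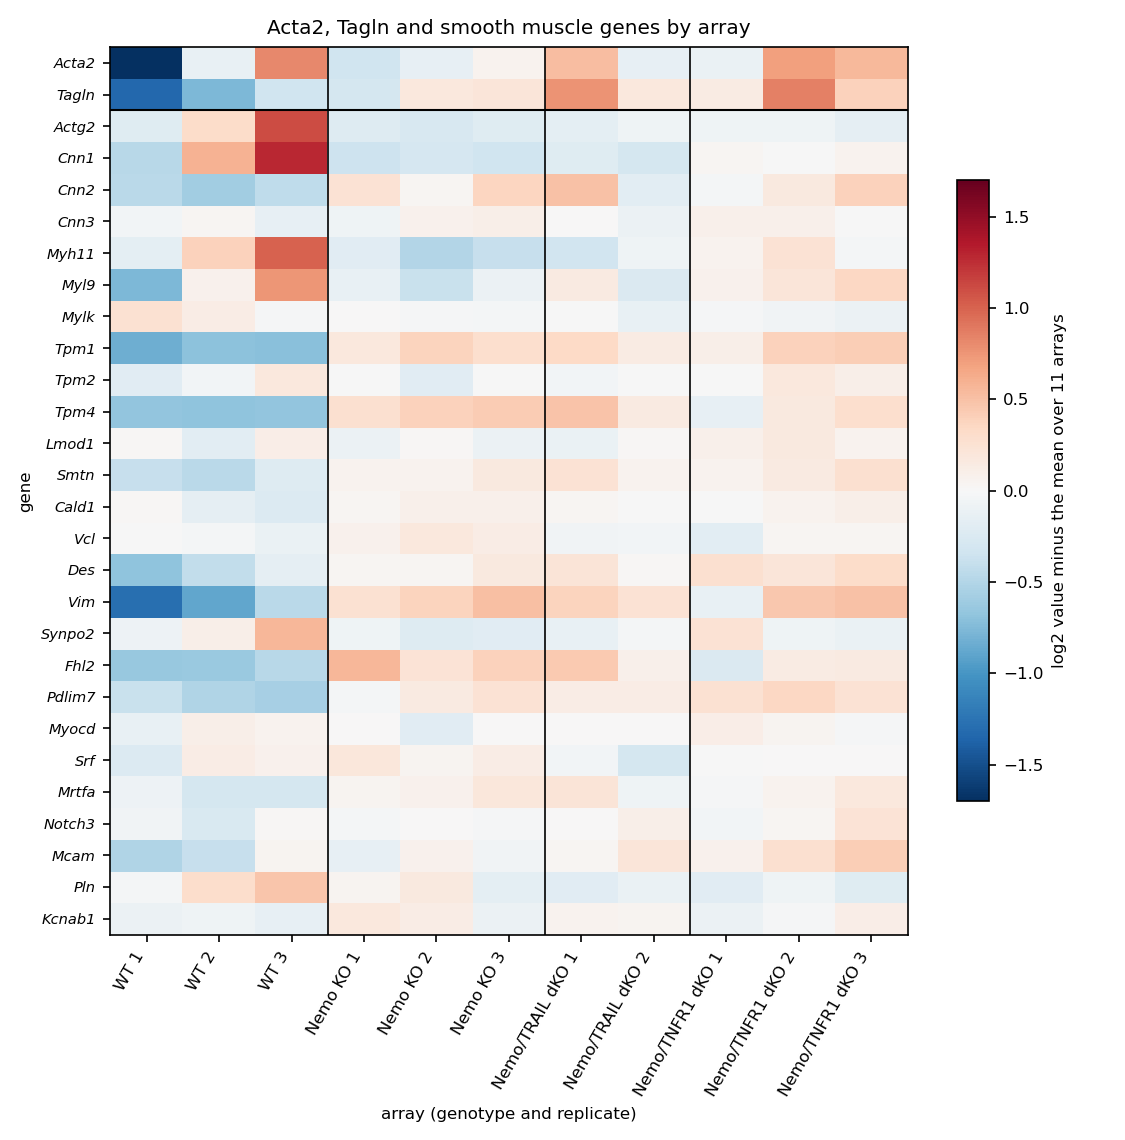
Acta2, Tagln and the 26 listed cytoskeletal and smooth muscle genes (vertical) on each of the 11 arrays (horizontal); colour gives the log2 value minus that gene's mean over the 11 arrays, from blue (below) to red (above). Acta2, Cnn1, Myh11, Actg2 and Myl9 are lowest in WT replicate 1 and highest in WT replicate 3 among the WT arrays, while Vim, Tpm1 and Tpm4 are below their mean on all 3 WT arrays.

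The 250 bases upstream of Acta2 (RefSeq, GRCm38.p6, chr19:34255374-34255623, minus strand) are shown because the CArG box is the motif that smooth muscle genes are known for.
Acta2: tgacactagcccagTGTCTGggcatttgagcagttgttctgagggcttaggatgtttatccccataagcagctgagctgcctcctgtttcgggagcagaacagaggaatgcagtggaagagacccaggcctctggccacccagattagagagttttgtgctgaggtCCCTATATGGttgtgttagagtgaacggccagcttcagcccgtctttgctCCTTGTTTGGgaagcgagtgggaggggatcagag
Capitals mark 2 CArG matches, at -84 and -34, and a CAGACA match on the reverse strand at -236. The window had no TATAAA and no GGGCGG match. Among the receptors, Tgfbr2 had 1 CArG match at -73, and 1 of the 2 Tgfbr1 windows had 2 GGGCGG matches.

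Lum and Thbs1 had the largest rises of the 10 genes. Lum encodes lumican, a small leucine-rich proteoglycan that binds collagen fibrils and is made by fibroblasts and activated stellate cells. It read 7.44, 7.42 and 8.12 in WT, 9.90, 9.98 and 10.29 in Nemo KO, 9.72 and 9.40 on the Nemo/TRAIL dKO arrays, and 8.93, 9.87 and 10.06 in Nemo/TNFR1 dKO. WT replicate 3 was the highest WT array, and the lowest Nemo-deficient array still lay 0.81 above it. The difference was 2.40 ± 0.29 in Nemo KO (adjusted p = 0.00133, a fold of 5.26), 1.90 ± 0.33 in Nemo/TRAIL dKO (adjusted p = 0.00831) and 1.96 ± 0.29 in Nemo/TNFR1 dKO (adjusted p = 0.00336). With 1 array left out, all 11 fits kept the call in Nemo KO and Nemo/TNFR1 dKO, and 10 kept it in Nemo/TRAIL dKO, the exception being its replicate 1 (adjusted p = 0.0823).

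Thbs1 read 6.12, 6.60 and 6.73 in WT, 8.47, 8.42 and 8.38 in Nemo KO, 9.08 and 8.23 on the Nemo/TRAIL dKO arrays, and 7.99, 8.50 and 9.18 in Nemo/TNFR1 dKO. Its groups were the furthest apart of the 10 genes, with 1.26 between the highest WT and the lowest Nemo-deficient array. The Nemo KO arrays lay within 0.09 of each other and each double knockout spread over more than 0.8. The difference was 1.94 ± 0.30 in Nemo KO (adjusted p = 0.00437, a fold of 3.83), 2.17 ± 0.34 in Nemo/TRAIL dKO (adjusted p = 0.00557) and 2.07 ± 0.30 in Nemo/TNFR1 dKO (adjusted p = 0.00321). As for Lum, the Nemo/TRAIL dKO call was lost only without its replicate 1 (adjusted p = 0.0608).

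Loss of TRAIL or TNFR1 on top of Nemo changed none of the 10 genes by this test. Against Nemo KO, 0 of 10 were called in Nemo/TRAIL dKO, beside 0.00502% of all genes, and 0 in Nemo/TNFR1 dKO, beside 0.0150%. Between the double knockouts 0 were called, beside 0.0301%. In all 3 comparisons 0 members had an unadjusted p below 0.05 in limma, and 0 were called under any of the other settings tried. The differences ran from -0.50 (Lum) to 0.45 (Tagln) in Nemo/TRAIL dKO against Nemo KO, from -0.43 (Lum) to 0.52 (Acta2) in Nemo/TNFR1 dKO against Nemo KO, and from -0.10 (Thbs1) to 0.21 (Smad7) between the double knockouts. Lum read 9.72 and 9.40 in Nemo/TRAIL dKO, below every Nemo KO array (9.90 to 10.29). Every other member overlapped in that comparison. The share of all genes with groups apart was not counted there.

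The intervals show what these arrays could have missed. For Tgfbr2 the 95% interval was -0.19 to 0.28 in Nemo/TRAIL dKO against Nemo KO and -0.09 to 0.33 in Nemo/TNFR1 dKO against Nemo KO, narrower than its rise against WT. For Lum it was -1.23 to 0.24 and -1.09 to 0.22, and a fall by 1 log2 unit lies within both. For Acta2 it was -1.02 to 1.68 and -0.69 to 1.73, wider than any difference measured for this gene. The test does not show that the genotypes act alike.

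**Figure D3:**
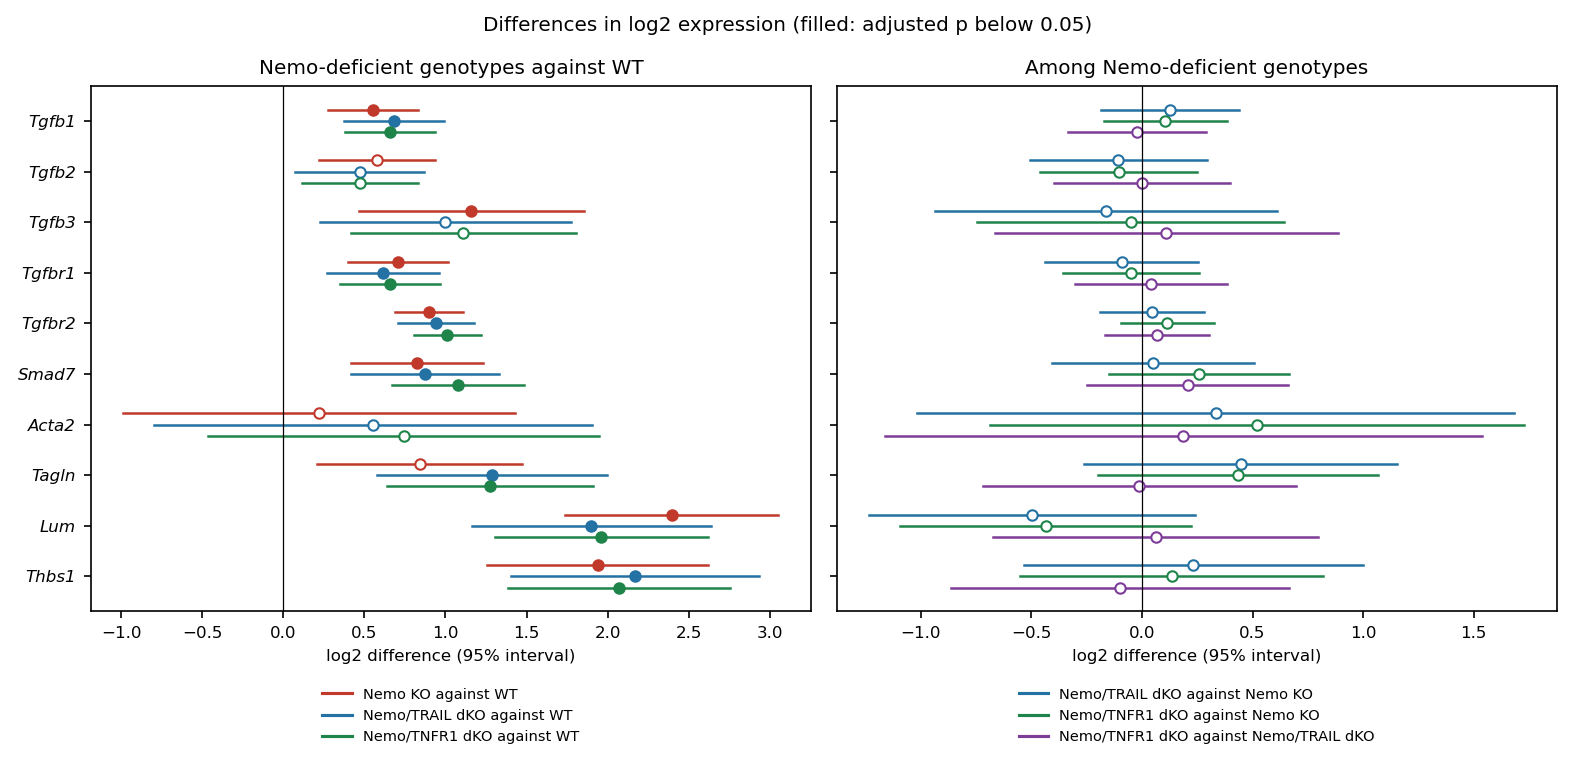
The log2 difference of each of the 10 genes (horizontal, with 95% intervals from limma) in the 3 comparisons with WT (left) and the 3 among Nemo-deficient genotypes (right); filled points passed at an adjusted p below 0.05. On the left Lum and Thbs1 lie furthest from 0 and Acta2 has the widest intervals, and on the right every interval includes 0.

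Within each double knockout 9 of the 10 genes shared their lowest array. In Nemo/TRAIL dKO replicate 1 was above replicate 2 for 9 of the 10, all but Smad7, beside 50.5% of all genes. In Nemo/TNFR1 dKO replicate 1 was the lowest array for the same 9 genes and the highest for Smad7, beside 35.4% of all genes at the lowest. Of the 10 genes, 7 were called against WT with both Nemo/TRAIL dKO arrays, 1 without replicate 1 (Tgfbr2), 4 without replicate 2 and 3 without WT replicate 2. In Nemo KO the count was lowest, at 4, without WT replicate 2. The cholangiocyte marker mean was lowest on the same array of each double knockout, with 6.85 and 6.40 in Nemo/TRAIL dKO and 6.24, 6.43 and 6.71 in Nemo/TNFR1 dKO. This order was not particular to cholangiocytes. Macrophage markers (8.66 and 8.59, then 8.61, 8.64 and 8.77) and portal fibroblast markers (6.79 and 6.69, then 6.73, 6.86 and 6.99) shared it. Stellate cell, vascular smooth muscle, lymphocyte, platelet, endothelial and hepatocyte markers did not. Over the 10 measured cholangiocyte markers 1 rose in Nemo KO (Tspan8, 1.11 ± 0.28, adjusted p = 0.0367), 2 with TRAIL missing and 1 with TNFR1 missing. Of all genes 8.51%, 6.88% and 8.18% rose in these comparisons, so a count of 1 is near that share. The Nemo KO count was 0 without any 1 of the 3 WT or 3 Nemo KO arrays, and 2 or 3 without Nemo/TNFR1 dKO replicate 1 or 3. The Nemo/TRAIL dKO count was 0 without WT replicate 1, Nemo KO replicate 2 or Nemo/TRAIL dKO replicate 1. The group ranges were 5.90 to 6.20 in WT and 6.47 to 6.66 in Nemo KO. The part of cholangiocytes or other cells in the array order was not tested.

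Other genes of the pathway were taken from lists. Their counts stand beside the 8.51%, 6.88% and 8.18% of all genes that rose in the 3 comparisons with WT. Of 15 genes of TGF-beta latency and activation 8 rose in Nemo KO and 0 fell (median 0.51, against -0.05 over all genes). Itgb8, a subunit of an integrin that releases active TGF-beta, rose by 1.08 ± 0.19, Adamts1, a secreted protease, by 0.92 ± 0.17, and Emilin1, an elastic fibre protein, by 0.87 ± 0.11. The count was 3 in Nemo/TRAIL dKO (median 0.34) and 6 in Nemo/TNFR1 dKO (median 0.46). Without WT replicate 1 the counts were 5, 2 and 3. Nemo KO had 5 without WT replicate 2 and 4 without Nemo KO replicate 2 or 3. The Nemo/TRAIL dKO count was 0 without its replicate 1 and 5 without Nemo/TNFR1 dKO replicate 1. The Nemo/TNFR1 dKO count was 2 without its replicate 2 and 3 without its replicate 3.

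Most signal transduction genes were not called. Of 20 co-receptors, Smads and regulators 3 rose in Nemo KO and 0 fell (median 0.07). Over all genes 8.51%, 6.88% and 8.18% rose in the 3 comparisons with WT. The 3 in Nemo KO were Pmepa1, a TGF-beta target that dampens the signal (1.34 ± 0.19), Smad3, a receptor-activated Smad (0.36 ± 0.07), and Eng, the co-receptor endoglin (0.32 ± 0.08). The count was 1 for Nemo/TRAIL dKO and 3 for Nemo/TNFR1 dKO, with Pmepa1 among them in both (0.99 ± 0.21 and 1.04 ± 0.19). The Nemo KO count was 5 without Nemo/TNFR1 dKO replicate 1, the Nemo/TRAIL dKO count was 0 without WT replicate 1, WT replicate 2 or Nemo/TRAIL dKO replicate 1, and the Nemo/TNFR1 dKO count was 1 without its replicate 2. Smad3 read 8.58, 8.44 and 8.50 in WT, 8.90, 8.89 and 8.81 in Nemo KO, 8.45 and 8.31 on the Nemo/TRAIL dKO arrays, and 8.54, 8.59 and 8.62 in Nemo/TNFR1 dKO. The Nemo KO arrays were the 3 highest of the 11. Smad3 differed from Nemo KO by -0.48 ± 0.07 in Nemo/TRAIL dKO (adjusted p = 0.284) and by -0.28 ± 0.07 in Nemo/TNFR1 dKO (adjusted p = 0.433), neither of which passed the adjustment over all probe sets.

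Most of the listed genes that TGF-beta is known to induce rose. Of 18 measured, 13 rose in Nemo KO and 0 fell (median 1.03), 12 in Nemo/TRAIL dKO (median 0.98) and 13 in Nemo/TNFR1 dKO (median 1.09). Among all genes 8.51%, 6.88% and 8.18% rose in these comparisons. In Nemo KO Tnc, the gene of the matrix protein tenascin C, rose by 2.19 ± 0.37, Lox, the collagen cross-linking enzyme, by 1.83 ± 0.39, and Timp1, an inhibitor of matrix proteases, by 1.82 ± 0.25. Without WT replicate 1 the counts were 11, 7 and 11, and without WT replicate 3 they were 13, 12 and 13. The Nemo/TRAIL dKO count was 7 without WT replicate 2 and 4 without Nemo/TRAIL dKO replicate 1. Many of these genes respond to other signals too.

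Some relatives of Lum and Thbs1 rose, and most were not called. Of 12 other small leucine-rich proteoglycans 4 rose in Nemo KO and 0 fell (median 0.38), among them biglycan (Bgn, 0.89 ± 0.09), Prelp (0.87 ± 0.08) and decorin (Dcn, 0.75 ± 0.10), all below the 2.40 of Lum. The count was 3 for Nemo/TRAIL dKO and 5 for Nemo/TNFR1 dKO. Over all genes 8.51%, 6.88% and 8.18% rose in the 3 comparisons with WT, and the median in Nemo KO was -0.05. Of 9 thrombospondin genes and partners 3 rose in each genotype (median 0.05 in Nemo KO): Cd36, a thrombospondin and lipid receptor (1.92 ± 0.13 in Nemo KO), Adamtsl2, a secreted matrix protein (1.87 ± 0.19), and Thbs2, the closest relative of Thbs1 (1.37 ± 0.16).

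**Figure D4:**
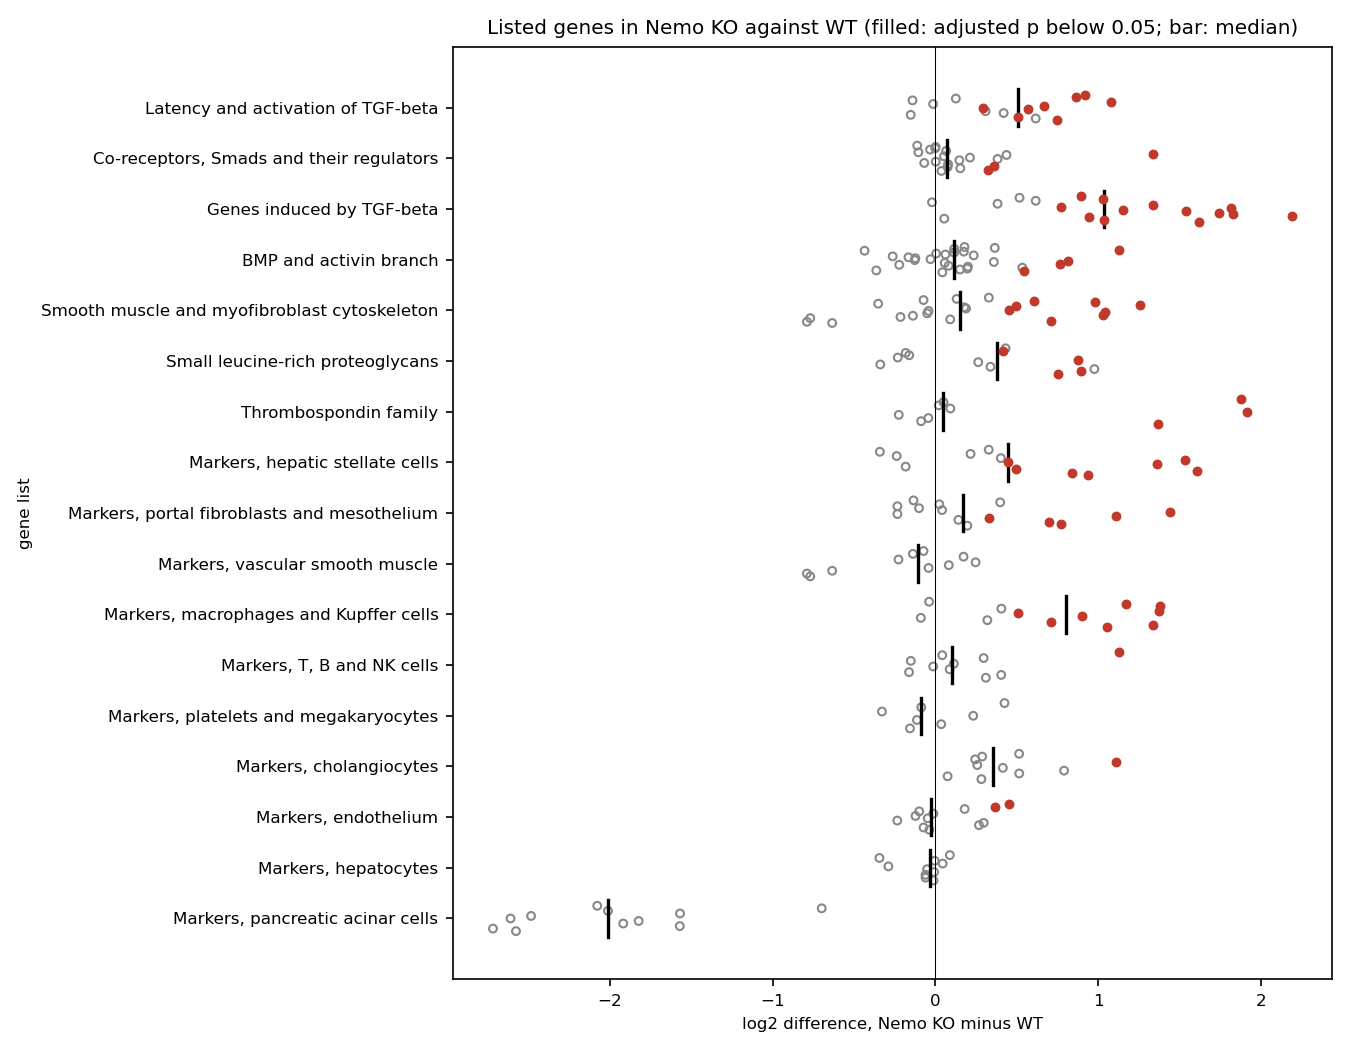
The log2 difference between Nemo KO and WT (horizontal) of every measured gene of 17 lists (vertical); a point is 1 gene, filled points passed at an adjusted p below 0.05 and a black bar is the list's median. The genes induced by TGF-beta have the highest median (1.03). The vascular smooth muscle, platelet, hepatocyte and acinar markers have no filled point. The acinar markers lie far below 0, with a median of -2.01 that is -0.28 without WT replicate 3.

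Some markers of cell types that can make such transcripts rose as well. Which cells made the transcripts was not measured. The counts below stand beside the 8.51%, 6.88% and 8.18% of all genes that rose in the 3 comparisons with WT. Of 13 measured stellate cell markers 7 rose in Nemo KO and 0 fell (median 0.45), 5 rose with TRAIL missing and 7 with TNFR1 missing. The Nemo KO count was 4 without Nemo KO replicate 3, and the Nemo/TRAIL dKO count was 3 without its replicate 1. Pdgfrb, the receptor for platelet-derived growth factor on stellate cells, rose by 1.61 ± 0.20 in Nemo KO, Cygb (cytoglobin) by 1.53 ± 0.14 and Hgf (hepatocyte growth factor) by 1.36 ± 0.12. The mean of the list was 8.32 to 8.38 in WT and 8.78 to 9.07 on the other arrays. Of 14 portal fibroblast and mesothelial markers 5 rose in Nemo KO (median 0.17), among them Cd34 (1.44 ± 0.36), Mfap4 (1.11 ± 0.22) and elastin (Eln, 0.77 ± 0.20). With TRAIL missing 1 rose, which is near the share of all genes, and with TNFR1 missing 3. For Nemo KO the count was 1 without Nemo KO replicate 1, 2 without WT replicate 1 or 2 or Nemo KO replicate 2 or 3, 3 without Nemo/TNFR1 dKO replicate 2 and 6 without WT replicate 3. Without WT replicate 3 the double knockout counts were 3 and 7. The list mean overlapped between genotypes, with 6.34 to 6.78 in WT and 6.83 to 6.90 in Nemo KO against 6.69 in Nemo/TRAIL dKO replicate 2.

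Macrophages, which make Tgfb1 and Thbs1 as well, also had higher markers. The shares of all genes that rose were 8.51%, 6.88% and 8.18% in the 3 comparisons with WT. Of 12 measured, 8 rose in Nemo KO and 0 fell (median 0.80), including Ccr2, a chemokine receptor of monocytes (1.38 ± 0.17), Lyz2, lysozyme (1.37 ± 0.16), and Cd68, a lysosomal protein (1.34 ± 0.12). In Nemo/TRAIL dKO 7 rose and 1 fell (Timd4, -0.53 ± 0.14, adjusted p = 0.0437, named after its value was seen), and in Nemo/TNFR1 dKO 8 rose. Without Nemo/TRAIL dKO replicate 1, 2 rose and 0 fell in that genotype. The Timd4 call was also lost without WT replicate 1 or 2, Nemo KO replicate 1 or 2, Nemo/TRAIL dKO replicate 2 or Nemo/TNFR1 dKO replicate 3. The list mean was 7.95 to 8.04 in WT and 8.59 to 8.90 on the other arrays. Of the hepatocyte markers 0 of 10 were called in any of the 3 comparisons with WT over all arrays, and 1 was lower in Nemo KO without either Nemo/TRAIL dKO array. Their mean was 13.01 to 13.06 in WT and slightly lower in Nemo KO, at 12.94 to 12.98. In both double knockouts it overlapped WT. The part of cell numbers in the rises of the 10 genes was not tested.

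The genes whose profile over the 11 arrays lay nearest to each member called in Nemo KO were found by the root mean square difference between centred log2 values, over 18709 genes. Nearest to Tgfb1 were Plekha2 (0.0801) and Hk2 (0.0817), and to Tgfb3 Svep1 (0.118) and Fgl2 (0.169). Nearest to Tgfbr1 were Ezh2 (0.0645) and Slc25a36 (0.0801), and to Tgfbr2 Fgd1 (0.0769) and Fcgr1 (0.0791). Smad7 was nearest to Gas7 (0.125) and Cd5l (0.162). Lum was nearest to Emp1 (0.212) and Kif11 (0.221), and Thbs1 to S100a11 (0.224) and Adamtsl2 (0.234), so the nearest profiles of these 2 genes were less close than those of the receptors. These values describe the 11 arrays, which share the genotype difference, and carry no test.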

How the data were processed

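The authors deposited log2 expression values of 35556 probe sets on 11 arrays, made with RMA per the submitters' processing notes, which give no version. They were used without further normalization, and each array was assigned to its genotype by its label. Probe sets were named from the platform annotation: 21789 had 1 gene symbol, 1621 had several and 12146 had none. Where a gene had several single-symbol probe sets, the one with the highest mean stood for it.

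With R 4.3.3 and limma 3.58.1, 1 mean per genotype was fitted to all probe sets and all 11 arrays and variances were moderated by eBayes (7 residual and 2.51 prior degrees of freedom). Two-sided p-values were adjusted (Benjamini-Hochberg) over all probe sets in each of 6 comparisons, and a gene was called at an adjusted p below 0.05, with no fold threshold. The fit was tested on simulated data with known changes. The median standard error of a difference was 0.102 between groups of 3 arrays and 0.114 against the group of 2.

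The 10 members and the 17 lists (250 entries, 233 measured, 221 distinct genes, written from general knowledge) were chosen with earlier results of these data known. The naming rule gave, per list, up to 3 genes called in Nemo KO against WT with the largest difference, or else the 1 gene with the largest difference. It also gave the 10 members, the 3 targeted genes and the nearest profiles of members called in Nemo KO. Alternatives were quantile normalization, centring on the median, a variance trend, robust eBayes, removal of probe sets below the 25th percentile or the median of mean signal, single-symbol probe sets, the mean of a gene's probe sets, only the 2 genotypes compared, array weights, a replicate block, an adjusted p below 0.01 and each array left out in turn. Promoter windows came from RefSeq tables of GRCm38.p6.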

Additional observations from a re-analysis of the deposited data

How the results depend on the processing

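No difference of a member that passed the test changed sign under any setting. At an adjusted p below 0.01, 3 members were called in Nemo KO against WT and 3 in the Nemo/TRAIL dKO comparison, where 0.05 gave 7 in each. With only the 2 genotypes compared in the fit, 27 listed genes were called in Nemo/TRAIL dKO against WT, where the fit over all arrays called 50. With 1 array left out, the count of members called against WT was 4 to 8 for Nemo KO, 1 to 7 for Nemo/TRAIL dKO and 5 to 8 for Nemo/TNFR1 dKO, and that of listed genes 41 to 66, 19 to 49 and 49 to 66. The lowest of these were without Nemo KO replicate 3 (41), Nemo/TRAIL dKO replicate 1 (19) and Nemo/TNFR1 dKO replicate 2 (49). Each of these fits has fewer arrays, yet some counts rose. In Nemo KO 66 listed genes were called without Nemo/TNFR1 dKO replicate 1, where all arrays gave 63. Between the double knockouts 0 to 1 listed genes were called, the 1 being Clec1b without WT replicate 3 (-1.56 ± 0.17, adjusted p = 0.0228). The other settings gave 6 to 8, 5 to 7 and 5 to 8 members. The replicate block gave 7 members in Nemo KO, 5 in Nemo/TRAIL dKO (Tgfbr1 and Smad7 lost) and 8 in Nemo/TNFR1 dKO (Tgfb3 gained). The labels do not say that replicate numbers pair the arrays. Of 15 same-number pairs 0 correlated above 0.1 (-0.12 to 0.04). These values were centred within groups of 2 or 3 arrays, so they cannot exclude a pairing. The cause of the changes between settings was not tested. Probe sets near background and groups of 2 or 3 arrays limit what can be seen.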

Other observations

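Most genes of the BMP and activin branch of the same ligand family were not called. Of 28 measured genes 4 rose in Nemo KO against WT and 0 fell (median 0.11), among them Id1, a target of BMP signalling (1.13 ± 0.15), Gdf2, which encodes BMP9 (0.82 ± 0.10), and Bmp5, a BMP ligand (0.77 ± 0.10). In Nemo/TRAIL dKO 3 rose and 1 fell, and in Nemo/TNFR1 dKO 3 rose and 2 fell. Over all genes 8.51%, 6.88% and 8.18% rose and 4.08%, 3.34% and 3.89% fell in the 3 comparisons. The call of Bmp4 in Nemo/TRAIL dKO was lost without WT replicate 1 or 3 or either Nemo/TRAIL dKO array. Id1 was among those that rose in both (1.24 ± 0.17 and 1.26 ± 0.15), as was Gdf2 (0.73 ± 0.12 and 0.96 ± 0.10). Bmp4, a BMP ligand, was lower in Nemo/TRAIL dKO (-0.60 ± 0.13, adjusted p = 0.0239) and in Nemo/TNFR1 dKO (-0.58 ± 0.12, adjusted p = 0.0147), with -0.22 ± 0.12 in Nemo KO (adjusted p = 0.276). Inhbc, the activin C subunit gene, was lower in Nemo/TNFR1 dKO (-0.66 ± 0.14, adjusted p = 0.0191). Bmp4 and Inhbc were named after their values were seen.

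Most lymphocyte, platelet and endothelial markers were not called against WT. Over all arrays no difference among the Nemo-deficient genotypes was called for them. Beside their counts, 8.51%, 6.88% and 8.18% of all genes rose and 4.08%, 3.34% and 3.89% fell in the 3 comparisons with WT. A count of 0 or 1 in these lists is near the share that rose. Of 10 lymphocyte markers 1 rose in Nemo KO, the pan-leukocyte gene Ptprc (1.13 ± 0.16), 1 with TRAIL missing (Ptprc) and 3 with TNFR1 missing (Ptprc and the T cell receptor subunits Cd3e, 0.48 ± 0.13, and Cd3g, 0.86 ± 0.17). Of 7 platelet markers 0 were called in Nemo KO, where Clec1b, a receptor of platelets and sinusoidal endothelium, differed by 0.42 ± 0.25 (adjusted p = 0.321), and with TRAIL missing 0 and with TNFR1 missing 1 was called (platelet factor 4, Pf4, 0.32 ± 0.07). Of 12 endothelial markers 2 rose in Nemo KO, Rspo3 (0.45 ± 0.10) and Vwf (0.37 ± 0.10). In Nemo/TRAIL dKO 3 rose, among them Lyve1, a receptor of sinusoidal endothelium (0.83 ± 0.16), and 1 fell (Kdr, a VEGF receptor, -0.41 ± 0.09), and in Nemo/TNFR1 dKO 2 rose, Lyve1 (0.80 ± 0.14) and Rspo3 (0.59 ± 0.10). The Nemo KO count was 0 without WT replicate 2 or Nemo KO replicate 2 or 3. Cd3e, Cd3g, Pf4, Lyve1 and Kdr were named after their values were seen. Of 10 hepatocyte markers 0 were called in Nemo KO, and the largest difference was that of Tdo2 (-0.34 ± 0.13, adjusted p = 0.136). The acinar gene Cpb1 differed by -2.72 ± 1.66 in Nemo KO (adjusted p = 0.343), with its signal in WT replicate 3.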
